A study of Mus musculus with 8 samples.

Results

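Inhibitory and activating paired receptors are surface proteins of myeloid cells that come in families of close relatives with opposite signals. Rows of the deposited table were taken by gene symbol for 10 such receptors, Cd300a, Cd300lb, Cd300ld, Cd300lf, Siglece, Siglec1, Sirpa, Pilra, Pirb and Cd200r1, of 17492 genes in all. The cells were C57BL/6 bone marrow-derived macrophages, grown in culture from marrow precursors. RNA was sequenced in 4 libraries of cells deprived of both serine and glycine (serine/glycine-free) and in 4 libraries of cells in normal medium (control). The labels give no stimulation, length of deprivation, mouse age or sex, and do not say whether the libraries came from separate cultures, so p-values measure only the spread between these libraries, which may be technical.

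The inhibitory receptors of these families carry immunoreceptor tyrosine-based inhibitory motifs (ITIMs) in their cytoplasmic tails, which recruit the phosphatases SHP-1 and SHP-2 when phosphorylated by Src-family kinases. The activating receptors have short tails and signal through the adaptors DAP12 or the Fc receptor gamma chain, whose activation motifs (ITAMs) recruit the kinase Syk. In macrophages the inhibitory members are known for restraining phagocytosis and inflammatory signalling when they meet ligands on healthy cells.

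The genes differ in how well short reads can tell them from their relatives, and the sequences below show where. Cd300lf and its activating relative Cd300ld share a run of 134 identical coding bases, bases 213 to 346 of the Cd300lf coding sequence. Cd300a and the paralog Cd300c2 share 140 bases, from base 289 to base 428 of the Cd300a coding sequence. Pilra and its activating partner Pilrb1 share 121 bases, from base 260 to base 380 of the Pilra coding sequence. These runs were read from GENCODE vM21 transcripts of build GRCm38.p6 and are given 5′ to 3′ in lower case, since every base is shared.
Cd300lf and Cd300ld: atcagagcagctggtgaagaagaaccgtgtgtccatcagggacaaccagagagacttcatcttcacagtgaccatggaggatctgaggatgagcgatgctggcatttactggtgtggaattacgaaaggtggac
Cd300a and Cd300c2: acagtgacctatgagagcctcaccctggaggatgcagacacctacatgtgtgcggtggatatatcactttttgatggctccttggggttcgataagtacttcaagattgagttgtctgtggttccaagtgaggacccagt
Pilra and Pilrb1: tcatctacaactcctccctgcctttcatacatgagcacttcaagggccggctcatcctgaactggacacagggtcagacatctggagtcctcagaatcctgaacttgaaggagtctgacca

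Pirb and the activating Pira2 share the longest run among the members, 477 coding bases. Of all 50-base stretches of a gene's transcripts, 37.3% of those of Pirb, 8.03% of those of Pilra and 6.04% of those of Cd300lf also occur in transcripts of another gene. The share was 3.89% for Cd300ld, 3.28% for Cd300a, 2.17% for Cd200r1 and 1.33% for Siglec1, and 0% for Cd300lb, Siglece and Sirpa. The authors' estimated counts split shared reads between genes, and such split counts need not be whole. Counts of Pirb and Pilra were not whole in all 8 libraries, those of Cd300a in 4 and those of Cd300lf and Cd300ld in 2. Cd300lb, Siglece, Siglec1, Sirpa and Cd200r1 had whole counts in every library. The 2 libraries with non-whole Cd300lf and Cd300ld counts were the same ones. Replicate 4 of the serine/glycine-free group had 97.02 counts of Cd300lf and 6249.98 of Cd300ld, and replicate 4 of the control group had 63.01 and 7888.99, so that the fractions add up to whole reads.

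Library totals lay between 17565291 and 18201599 estimated counts, so a gene with no reads could still have had up to 3 counts, or 0.164 to 0.171 CPM (counts scaled to a common library total). This limit covers counting error only. Replicates of a group varied with a coefficient of variation of 2.78% by edgeR's dispersion estimate. The labelled cell type was checked against 8 macrophage markers, whose summed level was 18900 to 19200 CPM in serine/glycine-free libraries and 18900 to 19400 CPM in control libraries. Of these 8 genes, 4 rose and 4 fell, so the steady sum does not mean that each marker was steady. The largest part of the sum was Lyz2, at 9990 CPM without serine and glycine and 9110 CPM in controls. Itgam fell most, with 1110 CPM without serine and glycine and 1690 CPM in controls (log2 -0.61). Csf1r rose most, with 1260 CPM without serine and glycine and 946 CPM in controls (log2 0.41). Marker sums of neutrophils (10 genes) were 120 to 131 CPM without serine and glycine and 136 to 143 CPM in controls, nearly all of it Csf3r, and those of B cells (6 genes) 44.6 to 50.1 CPM without serine and glycine and 55.8 to 63.3 CPM in controls, most of it Cd79b. T cell markers summed to 3.09 to 3.72 CPM in serine/glycine-free libraries and 2.76 to 3.42 CPM in controls, and mast cell, NK cell, dendritic cell, fibroblast and erythroid markers stayed under 2 CPM in every library. Of the neutrophil markers, Csf3r fell to 122 CPM without serine and glycine, against 138 CPM in controls, and S100a8 rose to 1.87 CPM, against 0.755 CPM in controls. The other 8 were under 0.2 CPM on average in both groups, with Mpo and Retnlg at 0 in all serine/glycine-free libraries and Ly6g, Elane and Camp at 0 in all controls. The part of these other cell types in the receptor results was not tested. In bulk libraries, fewer cells with a transcript and less transcript per cell cannot be told apart.

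All 10 receptors differed between the media, 4 of them higher and 6 lower without serine and glycine (edgeR quasi-likelihood test, adjusted p under 0.05). Over all 11700 genes tested, 33.2% passed, with 15.9% higher and 17.3% lower. The changes were small and ran from a fall of Cd200r1, the receptor for CD200, to 0.789 of its control level to a rise of Cd300lf, a lipid-binding inhibitory receptor, to 1.47-fold. The median size of the members' log2 changes was 0.25, against 0.10 over all genes tested, and their median signed change was -0.17, against 0.0074. Levels of the groups in CPM did not overlap for any of the 10, and 30.6% of the genes tested had no such overlap. The members were chosen with earlier results of these data known, so these comparisons with all genes are descriptions only. Small changes also pass more readily in genes with many reads, as most members have. Both directions occurred among the inhibitory receptors and among the activating ones.

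**Figure D1:**
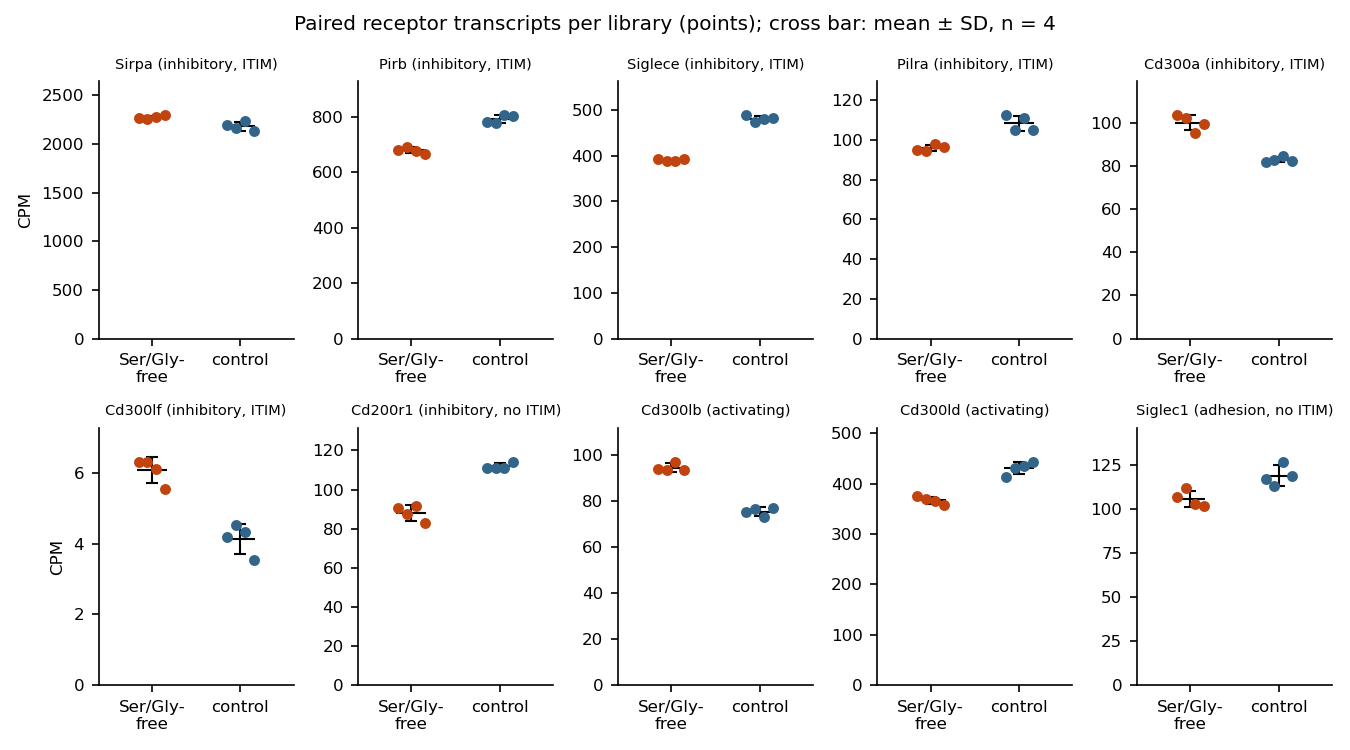
Level of each receptor in CPM (vertical axes, each starting at 0) in the 4 serine/glycine-free libraries and the 4 control libraries; points are libraries and the cross bars mean ± SD. Sirpa, Cd300a, Cd300lf and Cd300lb lie higher without serine and glycine and the other 6 lower, with no overlap between the groups in any panel.

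In build GRCm38.p6, Sirpa lies at chr2:129591042-129632228, Siglec1 at chr2:131067801-131086778, Pirb at chr7:3712505-3720382, Siglece at chr7:43648882-43672044, Pilra at chr5:137821952-137836278 and Cd200r1 at chr16:44765736-44794977. The 4 CD300 genes are on chromosome 11. The deposited table gives 1 value per gene and library, so the values below are of genes and not of single exons.

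Sirpa encodes SIRPα, the macrophage receptor for the "don't eat me" protein CD47. It was the most abundant member, with 2266, 2262, 2281 and 2298 CPM in the serine/glycine-free libraries and 2199, 2161, 2239.8 and 2135 CPM in the controls. The highest control library lay just below the lowest serine/glycine-free library. The means were 2277 ± 16.5 CPM without serine and glycine and 2183 ± 45.8 CPM in controls (SD, n = 4 each), a log2 fold change of 0.060 (SE 0.021) with an adjusted p of 0.0243 by edgeR. This was the smallest change among the members. Its call was lost when serine/glycine-free replicate 3 (adjusted p = 0.0610), control replicate 2 (adjusted p = 0.0838) or control replicate 4 (adjusted p = 0.112) was left out.

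Pirb encodes the paired immunoglobulin-like receptor B, an inhibitory receptor for MHC class I molecules. Its level was 681, 692, 678 and 665 CPM without serine and glycine and 781, 775, 806 and 801 CPM in controls. Every serine/glycine-free library lay more than 80 CPM below every control library. Pirb fell to 0.858 of the control level (log2 -0.22, SE 0.023, adjusted p = 1.53e-10, edgeR). Siglece encodes Siglec-E, a receptor for sialic acids on cell-surface sugars and an ITIM-bearing Siglec of mouse myeloid cells. It had 393, 388, 388 and 393 CPM in serine/glycine-free libraries and 489, 474, 479 and 482 CPM in controls. Libraries within a medium were nearly alike, at 391 ± 2.62 CPM without serine and glycine and 481 ± 6.10 CPM in controls (SD, n = 4 each). Siglece fell to 0.812 of the control level (log2 -0.30, SE 0.024, adjusted p = 5.04e-14, edgeR), the smallest adjusted p among the members.

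Pilra encodes the inhibitory paired immunoglobulin-like type 2 receptor, which binds sialylated proteins such as CD99. It had 94.7, 94.5, 97.9 and 96.5 CPM in serine/glycine-free libraries and 113, 105, 111 and 105 CPM in controls. The control libraries split into a higher and a lower pair, and both pairs exceeded every serine/glycine-free library. Pilra fell to 0.885 of the control level (log2 -0.18, SE 0.033, adjusted p = 3.44e-05, edgeR). Cd200r1, the receptor for CD200, has no ITIM and inhibits through the adaptor proteins DOK1 and DOK2. It stood at 90.7, 87.6, 91.8 and 82.7 CPM without serine and glycine and at 111, 111, 111 and 114 CPM in controls. The lowest library was serine/glycine-free replicate 4. Its fall to 0.789 of the control level (log2 -0.34, SE 0.034, adjusted p = 3.12e-11, edgeR) was the steepest among the members.

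The other ITIM-bearing receptors, Cd300a and Cd300lf, bind phospholipids such as phosphatidylserine that are exposed on dying cells, and Cd300lf is also the entry receptor of murine norovirus. Both were higher without serine and glycine. Cd300a had 104, 102, 95.6 and 99.5 CPM in the serine/glycine-free libraries and 81.8, 83.1, 84.6 and 82.5 CPM in the controls. The lowest serine/glycine-free library lay above the highest control. Cd300a rose to 1.21-fold (log2 0.27, SE 0.034, adjusted p = 1.05e-08, edgeR). Cd300lf was the least abundant member, at 6.31, 6.33, 6.13 and 5.54 CPM without serine and glycine and 4.19, 4.52, 4.32 and 3.54 CPM in controls. Replicate 4 was the lowest library in both groups. Its rise to 1.47-fold (log2 0.55, SE 0.11, adjusted p = 8.97e-05, edgeR) was the largest among the members and carried the largest error.

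The 2 activating receptors moved in opposite directions. Cd300lb, which signals through DAP12, had 94.0, 93.7, 97.2 and 93.4 CPM without serine and glycine and 75.0, 76.7, 72.9 and 76.9 CPM in controls. It rose to 1.25-fold (log2 0.33, SE 0.034, adjusted p = 1.13e-10, edgeR). Cd300ld, which pairs with the Fc receptor gamma chain, had 375, 368, 366 and 357 CPM in serine/glycine-free libraries and 414, 431, 435 and 444 CPM in controls. All serine/glycine-free libraries lay below all controls. Cd300ld fell to 0.851 of the control level (log2 -0.23, SE 0.026, adjusted p = 5.75e-10, edgeR).

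Siglec1, or sialoadhesin, binds sialic acids in cell adhesion, lacks an ITIM and is known as an interferon-inducible gene. Its level was 107, 112, 103 and 101 CPM without serine and glycine and 117, 113, 127 and 118 CPM in controls. The groups came within 2 CPM of each other. Siglec1 fell to 0.889 of the control level (log2 -0.17, SE 0.036, adjusted p = 0.000217, edgeR).

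Compared per transcript length, the order of the receptors was the same in both media. Sirpa stood at 1073 ± 14.9 TPM (transcript abundance per length, scaled to a common sum) in serine/glycine-free libraries and 1049 ± 25.1 TPM in controls (SD, n = 4 each, as for all TPM values here). Unlike in CPM, the media overlapped for Sirpa in TPM, with 1084 TPM in control replicate 3 and 1055 TPM in serine/glycine-free replicate 4. Pirb followed with 468 ± 17.1 TPM in serine/glycine-free and 557 ± 13.3 TPM in control libraries, Siglece with 422 ± 7.33 TPM in serine/glycine-free and 532 ± 4.92 TPM in control libraries, and Cd300ld with 284 ± 10.5 TPM in serine/glycine-free and 342 ± 12.3 TPM in control libraries. Each of these was separated from the next by more than its spread. Cd200r1 had 90.0 ± 5.34 TPM without serine and glycine and 117 ± 2.06 TPM in controls, and Pilra 69.9 ± 1.33 TPM in serine/glycine-free and 80.6 ± 2.70 TPM in control libraries. Cd300a had 66.0 ± 2.60 TPM in serine/glycine-free and 55.1 ± 0.958 TPM in control libraries, and Cd300lb 63.8 ± 1.80 TPM in serine/glycine-free and 51.8 ± 1.33 TPM in control libraries. In serine/glycine-free libraries, the levels of Pilra and Cd300a overlapped, as did those of Cd300a and Cd300lb. No neighbours overlapped in controls. Siglec1 had 30.4 ± 1.86 TPM in serine/glycine-free and 34.8 ± 1.84 TPM in control libraries, and Cd300lf 6.70 ± 0.676 TPM in serine/glycine-free and 4.54 ± 0.553 TPM in control libraries. The 10 receptors summed to 2495 to 2636 TPM without serine and glycine and 2783 to 2888 TPM in controls, of which Sirpa held 41.3% to 42.3% without serine and glycine and 36.4% to 37.5% in controls. The inhibitory receptors other than Sirpa summed to 1080.3 to 1156 TPM in serine/glycine-free libraries and 1330.7 to 1368 TPM in controls. The activating Cd300lb and Cd300ld summed to 331 to 357 TPM without serine and glycine and 374 to 404 TPM in controls. These sums are given as a description, with no test.

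The CD300 genes lie side by side on chromosome 11, and some neighbours moved in opposite directions while others moved together. In the order of build GRCm38.p6, Cd300a (chr11:114889152-114901946) is followed by Cd300lb (chr11:114922779-114934371), Cd300ld (chr11:114982443-114989886) and, after several paralogs, Cd300lf (chr11:115116214-115135372). Cd300a and Cd300lb rose, the next measurable gene Cd300ld fell, and Cd300lf at the far end rose. Of 7 paralogs outside the members, 6 could be tested, and 2 of them rose and 4 fell. Over all genes tested, 33.2% passed. Cd300c2, an activating receptor that lies between Cd300ld and Cd300ld4, averaged 180.0 ± 7.73 CPM without serine and glycine and 158 ± 4.72 CPM in controls (log2 0.19, adjusted p = 2.51e-06, edgeR). Cd300lg, which lies elsewhere on chromosome 11, had 1.69 ± 0.122 CPM without serine and glycine and 0.892 ± 0.333 CPM in controls (log2 0.91, adjusted p = 0.0018). The falls were in Cd300e, Cd300ld3, Cd300ld4 and Cd300ld5. Cd300e averaged 92.4 ± 4.38 CPM without serine and glycine and 107 ± 4.21 CPM in controls (log2 -0.21, adjusted p = 4.72e-06, edgeR). Cd300c stood at 0.181 CPM without serine and glycine and 0.0838 CPM in controls, too low to test. The spans of Cd300c2 and Cd300ld4, both on the minus strand, overlap, so counting by strand could not tell their reads apart there.

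**Figure D2:**
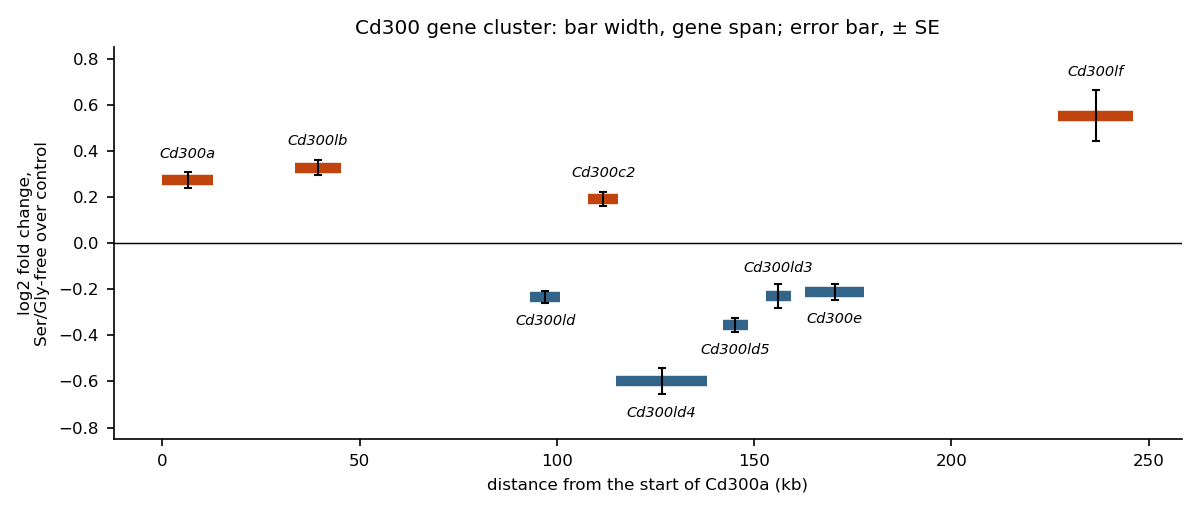
Log2 fold change of serine/glycine-free over control (vertical axis, error bars ± SE) against the distance from the start of Cd300a in kb; bar width is the gene's span, orange is higher and blue lower without serine and glycine. Cd300a, Cd300lb, Cd300c2 and Cd300lf lie above 0, while Cd300ld, Cd300ld4, Cd300ld5, Cd300ld3 and Cd300e lie below it.

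Cd300ld3, Cd300ld4 and Cd300ld5 are near-copies of each other, and 82.1%, 93.8% and 100% of their 50-base stretches occur in other genes. Their separate values are therefore uncertain. Cd300ld3 averaged 289 ± 19.0 CPM without serine and glycine and 339 ± 17.4 CPM in controls (log2 -0.23, adjusted p = 0.0074, edgeR), and without serine/glycine-free replicate 4 its adjusted p was 0.0538. Cd300ld4 averaged 37.1 ± 2.45 CPM without serine and glycine and 56.2 ± 4.99 CPM in controls (log2 -0.60, adjusted p = 2.3e-08). Cd300ld5 averaged 152 ± 4.84 CPM without serine and glycine and 194 ± 6.13 CPM in controls (log2 -0.35, adjusted p = 3.03e-13). Added together, the 3 genes had 478 ± 19.9 CPM without serine and glycine and 589 ± 17.6 CPM in controls, a fall of 0.30 on the log2 scale (adjusted p = 1.11e-11). Like Cd300ld, their sum was lower. All 11 CD300 genes together had 1320.0 ± 20.1 CPM without serine and glycine and 1448 ± 24.8 CPM in controls (log2 -0.13, SE 0.022, adjusted p = 3.11e-06, edgeR). The family as a whole was lower, whereas its members Cd300a, Cd300lb and Cd300lf were higher.

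Because some neighbours differed in direction, the sequences before the gene starts of Cd300lb, which rose, and of Cd300ld and Cd300ld3, which fell, are shown. They are RefSeq windows of build GRCm38.p6 on the minus strand that end just before the annotated gene span, at chr11:114934372-114934621 for Cd300lb, chr11:114989887-114990136 for Cd300ld and chr11:115048420-115048580 for Cd300ld3. Capitals mark GAGGAA, the core bound by the myeloid ETS factor PU.1, found on either strand.
Cd300lb: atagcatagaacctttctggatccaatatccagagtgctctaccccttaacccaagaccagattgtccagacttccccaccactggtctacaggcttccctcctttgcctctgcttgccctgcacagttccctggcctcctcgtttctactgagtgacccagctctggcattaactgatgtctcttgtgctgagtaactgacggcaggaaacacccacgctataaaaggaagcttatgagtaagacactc
Cd300ld: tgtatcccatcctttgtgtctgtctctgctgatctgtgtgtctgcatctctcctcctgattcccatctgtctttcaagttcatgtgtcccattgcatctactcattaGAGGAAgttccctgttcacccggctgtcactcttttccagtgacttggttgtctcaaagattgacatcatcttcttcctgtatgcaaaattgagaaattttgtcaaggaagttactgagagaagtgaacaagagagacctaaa
Cd300ld3: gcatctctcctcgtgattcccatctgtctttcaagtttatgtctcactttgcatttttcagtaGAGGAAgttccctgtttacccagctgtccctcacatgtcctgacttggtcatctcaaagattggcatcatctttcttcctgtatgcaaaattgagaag

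Identity and motifs were read from the full windows of 250 bases before the RefSeq start. The windows of Cd300a, Cd300lf and Siglece lie wholly inside the annotated gene span. Those of Cd300ld3, Cd300ld4 and Cd300ld5 lie partly inside it. Bases inside the span are not shown. Over these windows, Cd300ld and Cd300ld3 matched at 88.3% of 206 aligned bases, and Cd300ld4 and Cd300ld5 were 100% identical. The GAGGAA core was found in the windows of 6 of the 7 members with an entry, all but Cd300lb, and in 23.1% of 27025 promoter windows of 250 bases. These 6 include Cd300a and Cd300lf, which rose. The paralog Cd300c2, which rose, also had the core, and the paralog Cd300e, which fell, did not. Windows of Sirpa, Siglec1 and Cd200r1 were not analysed here. The interferon-response pattern, GAAA followed by any 2 bases and GAAA, occurred in 1 of the 7, Pilra, and in 3.04% of all windows. The C/EBP pattern TTGCNNAA occurred in 2 of the 7, Cd300a and Pilra, and in 9.55% of all windows. The AP-1 pattern TGANTCA (6.87% of all) and the E-box CACGTG (6.05% of all) were in none of the 7. Both strands were searched and no matches overlapped. These are descriptions of letters in a window.

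Relatives of Siglece and Siglec1 gave no calls. Of 6 measured Siglecs outside the members, Cd33, Siglecf, Mag and Cd22 could be tested (Siglecg and Siglech were too low), and 0 of the 4 passed by edgeR, DESeq2 or limma-voom, with 0 at an unadjusted p under 0.05 by edgeR. Their log2 changes ran from 0.012 to 0.053 by edgeR. Without serine and glycine, Siglecf averaged 2.79 CPM, Mag 4.52, Cd22 11.9 and Cd33 19.9. The SEs of their changes were 0.16, 0.14, 0.073 and 0.065 in that order, against 0.024 for Siglece and 0.036 for Siglec1. A change as small as that of Siglec1 (log2 -0.17) could therefore have been missed in any of the 4, most readily in Siglecf and Mag. Whether these 4 genes differ in response from Siglece was not tested.

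**Figure D3:**
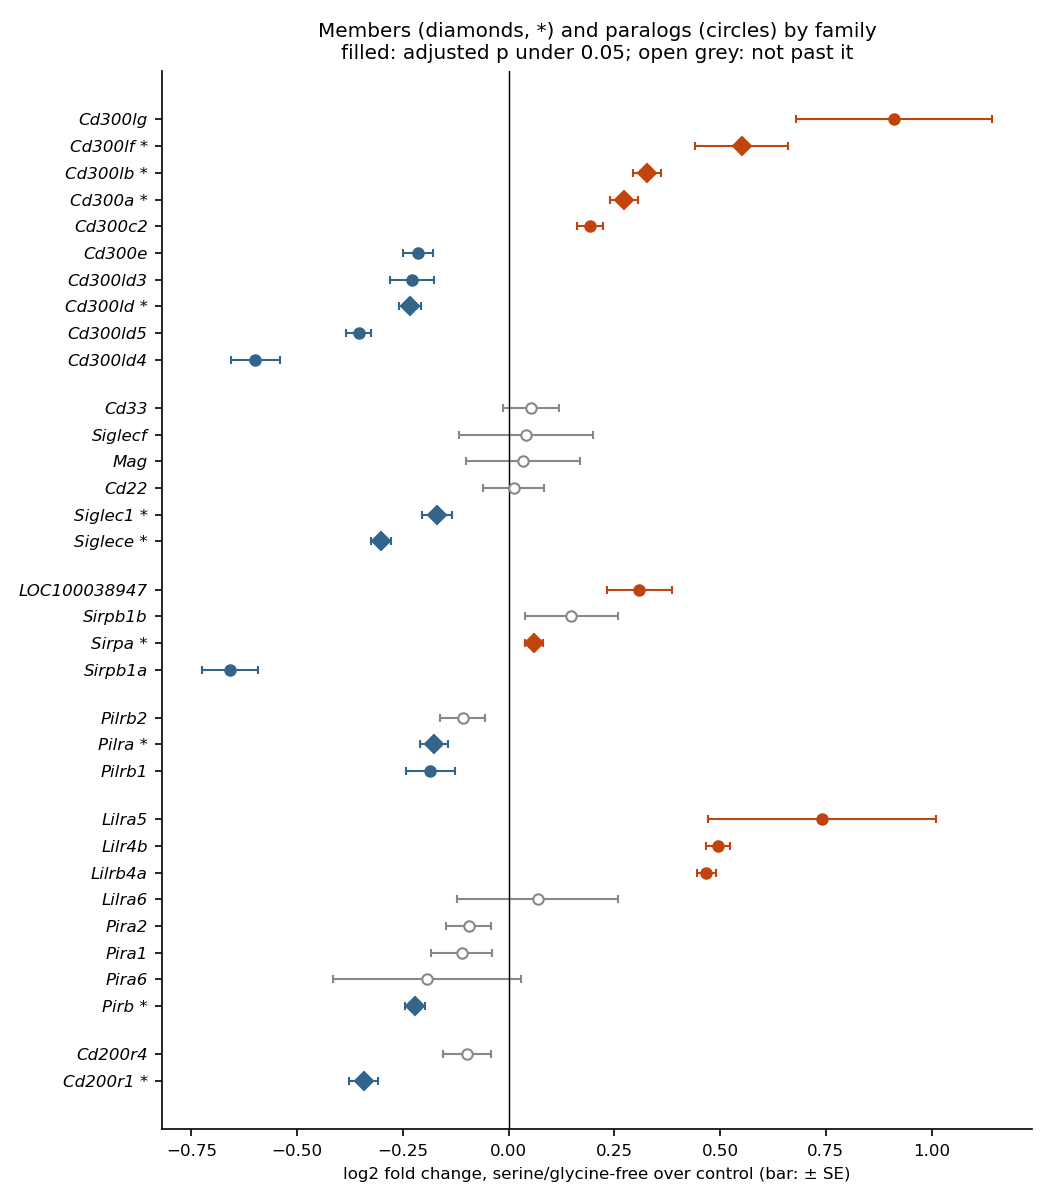
Log2 fold change of serine/glycine-free over control with ± SE for the 10 members (diamonds) and their tested paralogs (circles), grouped by family; filled symbols passed an adjusted p of 0.05. The CD300 and PIR/LILR groups hold filled symbols on both sides of 0, and the 4 Siglec relatives are open and close to it.

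Among the SIRP, PILR, PIR/LILR and CD200R relatives, 13 of 15 measured genes could be tested, of which 4 rose, 2 fell and 7 missed the threshold. Of the 13, 46.2% were called, against 33.2% over all genes tested. The inhibitory Lilrb4a, also named gp49B, had 708 ± 11.3 CPM without serine and glycine and 512 ± 7.46 CPM in controls, and the activating near-copy Lilr4b had 205 ± 3.92 CPM without serine and glycine and 146 ± 2.16 CPM in controls (log2 0.47 and 0.49). Lilrb4a and Lilr4b have 443 of the 1554 50-base stretches of Lilrb4a in common, and most stretches of Lilrb4a also occur in the annotated gene Gm49339. The sum of Lilrb4a and Lilr4b was 913 ± 14.9 CPM without serine and glycine and 658 ± 9.56 CPM in controls (log2 0.47, adjusted p = 4.69e-21, edgeR). The pair was higher, whereas Pirb was lower. Lilra5, an activating receptor, had 1.10 ± 0.325 CPM without serine and glycine and 0.656 ± 0.0968 CPM in controls (log2 0.74, adjusted p = 0.0299), a call lost with DESeq2 (adjusted p = 0.112) and when serine/glycine-free replicate 1 or 4 or control replicate 1, 2 or 3 was left out (adjusted p up to 0.151). The PIR-A genes Pira1, Pira2 and Pira6, which are activating partners of Pirb, did not pass, with log2 changes of -0.11, -0.095 and -0.19. Their separate values are uncertain, since their counts were not whole in all 8 libraries and 93.0% of the 50-base stretches of Pira2 recur elsewhere. Pirb added to Pira1, Pira2, Pira6 and Lilra6 had 721 ± 12.3 CPM without serine and glycine and 836 ± 16.5 CPM in controls (log2 -0.21, adjusted p = 3.3e-10, edgeR). Pirb made up most of this sum, which leaves out other genes that share stretches with it.

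The activating relatives of Sirpa gave mixed values. Sirpb1a fell to 15.1 ± 0.813 CPM in serine/glycine-free libraries, against 23.8 ± 2.28 CPM in controls (log2 -0.66, adjusted p = 4.99e-11, edgeR). The gene listed as LOC100038947, which is Sirpb1c, had 12.3 ± 0.912 CPM without serine and glycine and 9.94 ± 0.283 CPM in controls (log2 0.31, adjusted p = 0.0014), and Sirpb1b did not pass (log2 0.15, adjusted p = 0.325). Between 43.8% and 66.9% of the 50-base stretches of these 3 genes recur elsewhere, and their sum fell by 0.23 on the log2 scale (adjusted p = 0.000126), so the separate directions are uncertain. Sirpa itself shares none. Of the activating partners of Pilra, Pilrb1 fell to 20.6 ± 1.37 CPM without serine and glycine, against 23.4 ± 0.759 CPM in controls (adjusted p = 0.0107), whereas Pilrb2 did not pass (log2 -0.11, adjusted p = 0.113). Pilrb2 passed when serine/glycine-free replicate 1 was left out (-0.16, adjusted p = 0.0238), and also after removal of the trend with gene length (-0.16, adjusted p = 0.0087). Pilra and both partners together fell by 0.16 on the log2 scale (adjusted p = 1.55e-05). Cd200r4, an activating relative of Cd200r1, did not pass either (log2 -0.099, adjusted p = 0.179). Cd200r2 and Cd200r3 were too low to test. Cd200r2 had 0.517 ± 0.0800 CPM without serine and glycine and 0.140 ± 0.0327 CPM in controls, with no overlap, and Cd200r3 averaged 0.0420 CPM without serine and glycine and 0.0699 CPM in controls. The sum of the 4 CD200R genes, mostly Cd200r1, fell by 0.28 on the log2 scale (adjusted p = 2.78e-09, edgeR).

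Ligands of these receptors were measured in the same cells. Among 9 with enough reads, 2 rose, 2 fell and 5 missed the threshold. Of the 9, 44.4% were called, against 33.2% over all genes tested. Cd47, the ligand of SIRPα, fell to 171 ± 3.86 CPM without serine and glycine, against 189 ± 4.56 CPM in controls (log2 -0.14, adjusted p = 7.7e-05, edgeR), while Sirpa was 1.04-fold higher. Cd200, the ligand of CD200R1, rose to 1.19 ± 0.351 CPM, against 0.559 ± 0.189 CPM in controls (log2 1.08, adjusted p = 0.0028), at a low level. Spn, which encodes the sialoadhesin ligand CD43, fell by 0.21 on the log2 scale, and the MHC class I gene H2-D1 rose by 0.10. B2m, the shared light chain of MHC class I, did not pass (log2 0.059, adjusted p = 0.108), but did so without serine/glycine-free replicate 2 (adjusted p = 0.0152) or control replicate 1 (adjusted p = 0.0159), and with library size alone as the scaling (log2 0.068, adjusted p = 0.0394). The 9 ligands had a median log2 change of 0.059.

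Siglecs and PILRα recognise sialic acids on their ligands, and genes that make, attach, modify or remove them changed both ways. Among 19 with enough reads, which include the sialidases Neu1 and Neu3, 7 rose, 5 fell and 7 missed the threshold. Of the 19, 63.2% were called, against 33.2% over all genes tested. St3gal5, the synthase of the ganglioside GM3, rose by 0.50 on the log2 scale, and Cmas, which activates sialic acid, rose by 0.26. The sialyltransferases St3gal2 and St3gal6 fell by 0.37 and 0.36, and Cmah, which converts Neu5Ac to the Neu5Gc of mouse cells, fell by 0.36. The median over the list was 0.093.

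Among 12 phosphatases and adaptors that inhibitory receptors use, 2 rose, 6 fell and 4 did not pass, with a median log2 change of -0.085. Of the 12, 66.7% were called, against 33.2% over all genes tested. Ptpn6, which encodes SHP-1, had 629, 641, 636 and 655 CPM in serine/glycine-free libraries and 738, 724, 735 and 728 CPM in controls. The groups were well apart, and Ptpn6 fell by 0.19 on the log2 scale (adjusted p = 3.93e-09, edgeR). Csk, the kinase that restrains Src-family kinases, fell by 0.19, the adaptor Dok3 by 0.22 and Inpp5d, which encodes SHIP-1, by 0.12. Ptk2b, which encodes the kinase PYK2, rose by 0.17.

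Among 14 adaptors and kinases of the ITAM pathway, 1 rose, 8 fell and 5 missed the threshold, with a median log2 change of -0.084. Over all genes tested, 15.9% rose and 17.3% fell. The 1 that rose was Tyrobp, which encodes DAP12, the adaptor of Cd300lb. It had 606, 576, 614 and 629 CPM without serine and glycine and 542, 506, 534 and 539.5 CPM in controls (log2 0.19, adjusted p = 1.46e-07, edgeR). Every serine/glycine-free library lay above every control. Over the alternatives described below, the log2 change of Tyrobp ran from 0.083 to 0.22, and its call held. Fcer1g, the Fc receptor gamma chain with which Cd300ld pairs, did not pass. The Src-family kinase Lyn, which phosphorylates ITIMs and ITAMs, fell by 0.28 on the log2 scale.

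**Figure D4:**
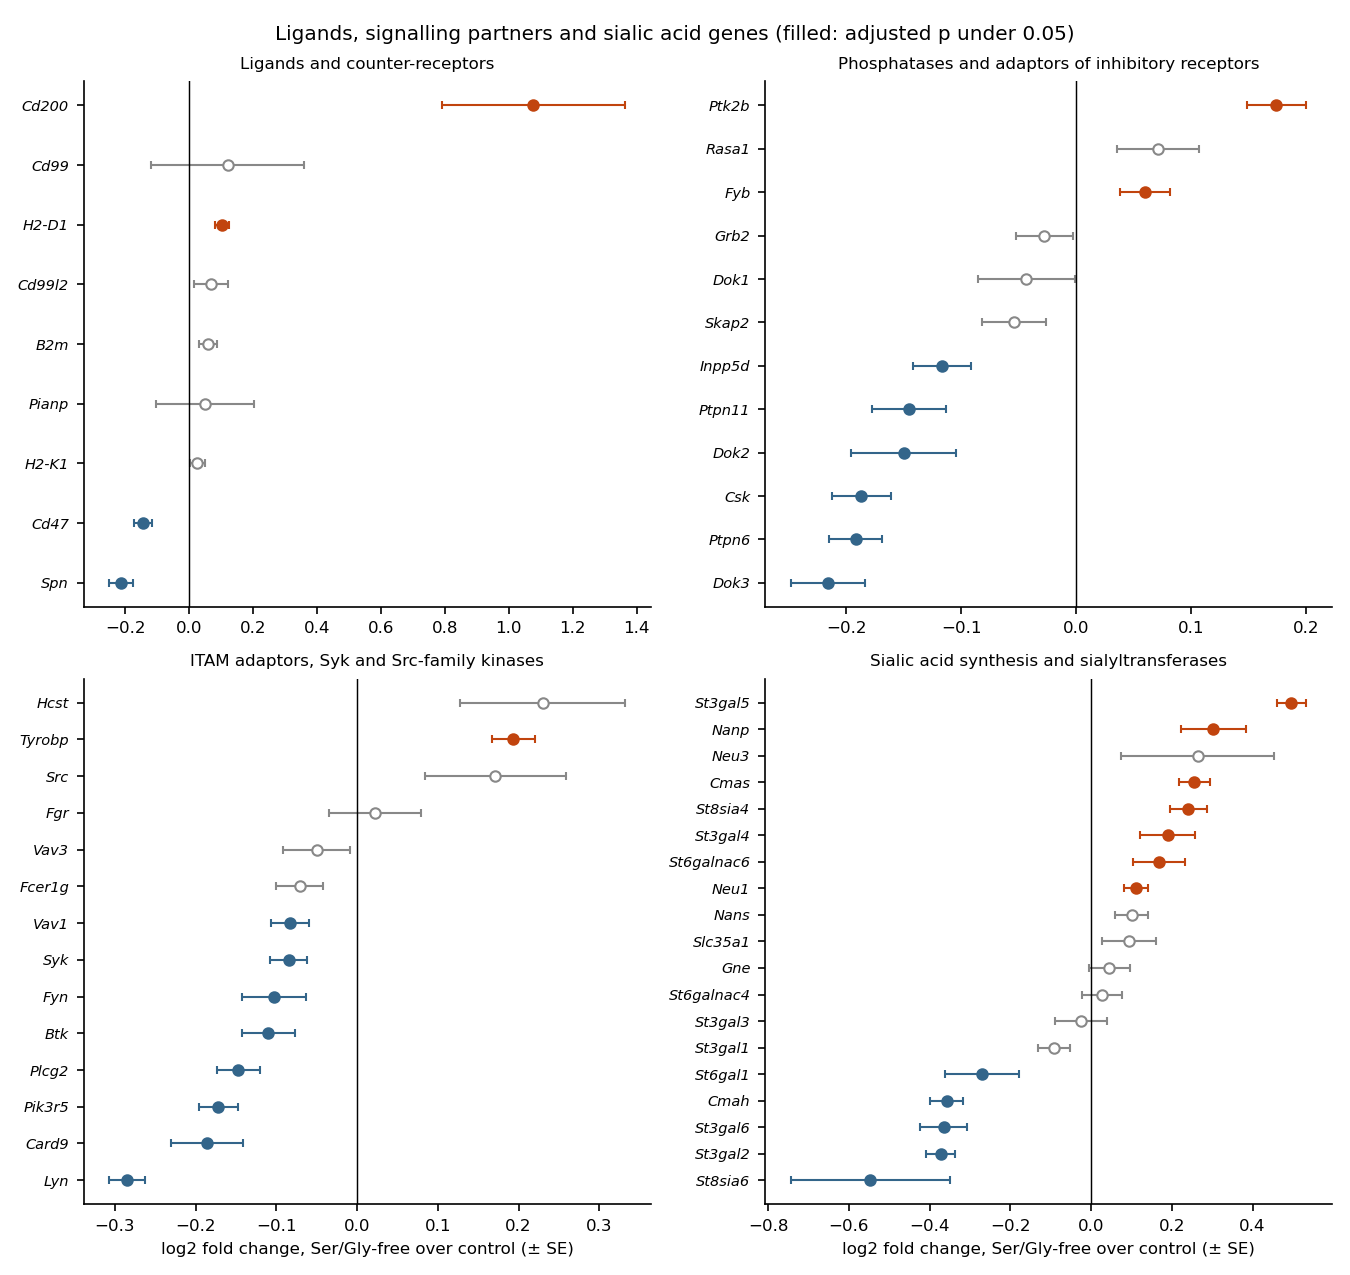
Log2 fold change of serine/glycine-free over control with ± SE (horizontal axes) for tested genes of 4 lists: ligands, phosphatases and adaptors, ITAM adaptors and kinases, and sialic acid genes; filled symbols passed an adjusted p of 0.05. In the panel of ITAM adaptors and kinases, Tyrobp is the single filled symbol above 0.

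Other receptors of these kinds gave the setting of the members. Among 18 further inhibitory and SLAM-family receptors, 5 rose, 9 fell and 4 missed the threshold, with a median log2 change of -0.19. Of the 18, 77.8% were called, against 33.2% over all genes tested. Cd84 rose by 0.38 and Havcr2, which encodes TIM-3, by 0.93, while Vsir, which encodes VISTA, fell by 0.34 and Slamf9 by 0.29. Among 13 TREM-family and other receptors listed together for DAP12, 4 rose, 4 fell and 5 missed the threshold, with 61.5% called. Coupling to DAP12 was not checked for each gene of this list, which also holds Treml1 and Treml2. They include Cd300e and the SIRP and PILR paralogs Sirpb1a, Sirpb1b, LOC100038947, Pilrb1 and Pilrb2 described above, which give 1 of the rises and 3 of the falls. Trem2, a lipid-sensing receptor of macrophages, had 375, 389, 388 and 404 CPM in serine/glycine-free libraries and 222, 214, 214 and 209 CPM in controls. It rose by 0.86 on the log2 scale (adjusted p = 1.52e-27, edgeR). Trem2 shares its adaptor with Cd300lb, which rose by 0.33, but 4 genes of this list fell, among them Cd300e (log2 -0.21).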

How the data were processed

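Per the labels, RNA was taken up in Trizol and libraries were made with oligo-dT beads. The submitters' processing notes name BWA, Bowtie2, RSEM and build GRCm38.p6, without versions. The authors deposited estimated counts, FPKM and TPM per gene and library. The deposited estimated counts were rounded and tested. The TPM deposited by the authors served only to compare levels between genes and for no test, and the deposited FPKM was used only for gene lengths. The 6 columns of averages were not used. Counts were called not whole at a tolerance of 1e-06.

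Low genes were removed (filterByExpr, minimum count 10, minimum total 15) and libraries scaled by TMM. The main test was edgeR 4.0.16's robust quasi-likelihood F test (R 4.3.3), 4 libraries against 4, with Benjamini-Hochberg adjustment over all genes tested and a threshold of 0.05. The SE was derived from the F statistic. Each library counted as 1 replicate. No 2 of a group agreed within sampling noise, which does not show that they came from separate cultures. The members and the 9 lists of related genes were chosen with earlier results of these data known, so no p was adjusted over a list. Named were all members and measured paralogs and, per other list, up to 5 genes with the smallest p. One gene of these lists is not reported here and was left out of the counts of its list. The steps were tested on simulated data. Alternatives used DESeq2 1.42.0, limma 3.58.1 (voom), other scalings, filters and thresholds, counts not rounded, the length trend removed, a replicate block, each library left out, and sums with paralogs. Shared stretches were counted in GENCODE vM21 transcripts, and windows before gene starts came from RefSeq.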

Additional observations from a re-analysis of the deposited data

Results flagged for a closer look

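A screen of 120 groups of 4 libraries asked whether the highest or lowest library stood apart from the other 3 by Dixon's criterion, and 6 did so, where chance gives about 1 in 20 groups. Cd300lb had 97.2 CPM in serine/glycine-free replicate 3, with the other libraries of that group at 93.4 to 94.0. Cd200r1 had 114 CPM in control replicate 4, with the other controls at 111. Cd300lg had 0.394 CPM in control replicate 4, with the other controls at 1.05 to 1.07. Lyn had 763 CPM in serine/glycine-free replicate 4, with the others at 780.0 to 782. Card9, an adaptor downstream of Syk, had 42.2 CPM in control replicate 1, with the others at 43.6 to 43.8, and Pik3r5 had 749 CPM in control replicate 3, with the others at 710.0 to 715.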

How the results depend on the processing

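Across the alternatives, 3 or 4 members were called higher and 6 lower, and the calls of the 9 members other than Sirpa held in direction and threshold, except in the sum over the family. Sirpa missed the threshold without the low-count filter (log2 0.052, adjusted p = 0.0710), with the replicate block (0.060, adjusted p = 0.0588) and at an adjusted p under 0.01 (0.060, adjusted p = 0.0243), and its range with each library left out was 0.049 to 0.072. Summed with their paralogs, Cd300a, Cd300lb and Cd300lf had a log2 change of -0.13. Sirpb1b and LOC100038947 had -0.23 in their sum with Sirpb1a. This sum and those of Lilrb4a with Lilr4b and of Cd300ld3 to Cd300ld5 were chosen after seeing the data. B2m was at -0.021 with the length trend removed. With each library left out, Cd22 ranged from -0.010 to 0.039, Cd33 from -0.018 to 0.096, Siglecf from -0.074 to 0.17, Mag from -0.076 to 0.14 and Lilra6 from -0.058 to 0.14. The cause of these shifts was not tested. Over all genes, 1239 to 2026 were called higher and 1528 to 2157 lower. With the replicate block the counts were 1771 and 1884, and it changed no member's call but that of Sirpa. Same-numbered libraries did not deviate together (correlations -0.0479, 0.0609, 0.0507 and -0.0943). Pairing by number was therefore not seen, but these correlations cannot exclude it, since library noise could hide it. Low depth limits genes such as Cd300lg, Lilra5 and Cd200, whose log2 changes had an SE of 0.23, 0.27 and 0.29.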
